A study of Mus musculus with 6 samples.

Results

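Azurophil granules are the first granules that a developing neutrophil fills, and the genes of their cargo were followed here in blood neutrophils sorted by surface Ly6C. The 10 genes were chosen by symbol, for what they encode, out of 35853 genes with transcripts in the tables. They comprise 6 genes transcribed mainly at the promyelocyte stage in the bone marrow (Mpo, Elane, Prtn3, Ctsg, Prss57 and Ms4a3, called progenitor-stage genes below), the protease-activating enzyme gene Ctsc, and 3 genes whose transcripts are also made in later stages (Lyz2, Srgn and Serpinb1a, called late genes below). All 10 were found in the tables and 8 passed the filter on low counts, while Elane and Ctsg did not.

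The animals were wild-type BALB/C mice carrying 4T1 tumours, a mouse mammary carcinoma line, implanted orthotopically, and blood was taken 4 weeks later. After lysis of red cells, cells positive for Ly6G were divided by sorting into those high and those low for Ly6C, and each group has 3 libraries. Both groups therefore came from tumour-bearing mice, and the labels give neither the age of the mice nor whether each library is from a different mouse, so the p-values rest on variation from library to library that could be technical only. RNA was measured in bulk, so fewer cells with a transcript and less transcript per cell cannot be told apart.

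Serine proteases of the chymotrypsin fold (neutrophil elastase, proteinase 3, cathepsin G and the protease NSP4, encoded by Elane, Prtn3, Ctsg and Prss57) are made in promyelocytes, trimmed to their active form by cathepsin C, and stored in azurophil granules on the proteoglycan serglycin, encoded by Srgn. Myeloperoxidase, encoded by Mpo, is stored with them and makes hypochlorous acid. Their transcription stops as the cell matures, and blood neutrophils carry the proteins with little of the messenger RNA, whereas lysozyme M (Lyz2) continues to be transcribed. Serpinb1a encodes a cytosolic inhibitor of these proteases that protects the cell that stores them.

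Libraries held between 17192372 and 20973623 estimated counts. The sort was seen in the transcripts: Ly6c2 measured 125, 165 and 127 CPM (counts per 1e6 counts, scaled between libraries by TMM) in Ly6C-high libraries and 14.6, 24.4 and 16.9 CPM in Ly6C-low ones. All 7 neutrophil markers examined were measured. Together they made up between 364270 and 369783 TPM (transcripts per 1e6 transcripts, a level corrected for transcript length) in the Ly6C-high libraries. In the Ly6C-low libraries they made up between 336132 and 352402 TPM. All 7 were tested, and 6 had a log2 fold change (Ly6C-high over Ly6C-low) above 0. With edgeR, 0 passed an adjusted p of 0.05. At an unadjusted p under 0.05, 3 were higher, against 6.92% of all genes: Mmp8 (0.59), Ly6g (0.50) and Retnlg (0.27). Csf3r lay below 0, at -0.16. Ly6C-low replicate 3 stood apart on the first principal component, at 38.02 where the other libraries lay between -19.65 and 3.91. Tumour epithelium markers summed to at most 0.39 TPM, with Krt8, Krt18 and Krt14 at 0 in all 6 libraries. Basophil and mast cell genes summed to between 3.21 and 5.41 TPM in the Ly6C-high and between 7.47 and 36.3 TPM in the Ly6C-low libraries, of which 6 of 7 were tested, all 6 with a log2 fold change (Ly6C-high over Ly6C-low) below 0. Eosinophil genes summed to between 18.9 and 23.4 TPM in Ly6C-high and between 35.7 and 37.7 TPM in Ly6C-low libraries. Siglecf was the largest part of these sums, with means of 14.6 and 22.7 TPM. Of the 5 eosinophil genes tested, 4 had a log2 fold change below 0 and 1 above. At an edgeR unadjusted p under 0.05, 3 were lower, against 7.34% of all genes, and 0 passed the adjusted threshold. Ear2 lay at -0.15 and Il5ra at 0.11. Monocyte genes summed to between 274 and 385 TPM in the Ly6C-high and between 324 and 358 TPM in the Ly6C-low libraries. Of the 6 tested, 5 lay above 0, and 4 of them had an unadjusted p under 0.05 with edgeR, where 6.92% of all genes were higher at that level: Cx3cr1 (log2 fold change 2.46), Ms4a6c (1.03), F13a1 (0.79) and Ccr2 (0.68). None of the 4 passed the adjusted threshold, with Cx3cr1 the nearest at 0.153. Each of these 4 had a mean of 3.19 TPM or less over the libraries. The more abundant Cd14 (mean 227 TPM) and Csf1r (107 TPM) had log2 fold changes of 0.20 and -0.18, with edgeR unadjusted p of 0.255 and 0.0763.

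The starts of 4 of the genes are shown, as they stand for the patterns described below: Prtn3 and Elane are neighbours on chromosome 10 that are read in the same direction, Ms4a3 varied between libraries as Prtn3 did, and Lyz2 is the abundant late gene. Each runs from 250 bases before to 50 bases after the annotated start, 5′ to 3′ on the gene's strand, from RefSeq on build GRCm38.p6, which is not the build the authors named. Capitals mark GAGGAA, a core bound by the myeloid factor PU.1, and TTGCNNAA, a form of the C/EBP site, on either strand.
Prtn3 (chr10:79879417-79879716, + strand): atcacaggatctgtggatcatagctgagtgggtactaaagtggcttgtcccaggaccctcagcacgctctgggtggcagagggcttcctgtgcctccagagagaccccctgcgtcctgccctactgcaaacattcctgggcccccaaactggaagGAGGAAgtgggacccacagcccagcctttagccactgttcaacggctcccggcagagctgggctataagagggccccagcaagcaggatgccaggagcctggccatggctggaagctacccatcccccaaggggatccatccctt
Elane (chr10:79886062-79886361, + strand): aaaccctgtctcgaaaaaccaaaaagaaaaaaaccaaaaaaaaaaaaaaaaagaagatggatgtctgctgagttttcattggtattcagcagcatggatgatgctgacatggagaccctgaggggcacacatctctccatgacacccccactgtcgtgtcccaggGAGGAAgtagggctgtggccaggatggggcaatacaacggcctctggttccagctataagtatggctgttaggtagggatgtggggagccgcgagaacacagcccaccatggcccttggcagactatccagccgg
Ms4a3 (chr19:11640802-11641101, - strand): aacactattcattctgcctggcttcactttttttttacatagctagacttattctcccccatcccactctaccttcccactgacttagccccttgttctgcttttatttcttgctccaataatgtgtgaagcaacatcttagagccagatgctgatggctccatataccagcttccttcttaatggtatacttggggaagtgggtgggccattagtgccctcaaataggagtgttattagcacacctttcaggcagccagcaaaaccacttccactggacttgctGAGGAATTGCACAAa
Lyz2 (chr10:117282223-117282522, - strand): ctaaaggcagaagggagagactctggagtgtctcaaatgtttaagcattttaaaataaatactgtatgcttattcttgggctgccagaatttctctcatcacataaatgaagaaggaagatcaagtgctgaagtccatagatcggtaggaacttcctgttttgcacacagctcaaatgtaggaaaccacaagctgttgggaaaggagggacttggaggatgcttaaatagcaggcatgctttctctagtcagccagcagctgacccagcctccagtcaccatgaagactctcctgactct

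RefSeq gave a promoter for 8 of the 10 members, all but Prss57 and Serpinb1a. GAGGAA on either strand occurred in the promoters of all 5 progenitor-stage genes with a sequence (at -95 in Prtn3, -85 in Elane and +35 in Ms4a3, where 0 is the start site, and also in Mpo and Ctsg), in that of Ctsc, and in neither Lyz2 nor the 2 listed for Srgn. The same letters occurred in 28.3% of all 32851 promoters of that length. TTGCNNAA occurred in Ms4a3 alone of the 8, at +41, directly after the GAGGAA and not overlapping it, against 10.8% of all promoters. AACNG, a short core of the MYB site, was present in 7 of the 8, all but Ms4a3, and in 80.3% of all promoters. AAATC, which holds the core of the site of the repressor GFI1, was present in Mpo alone and in 35.9% of all promoters. A match is a string of letters and does not show that a factor binds there. Other forms of these sites were not searched, so a promoter without a match, such as that of Lyz2, may still hold a site.

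The level of the 10 genes spanned more than 4 orders of magnitude on the TPM scale. Lyz2 had the highest mean level over the 6 libraries, 3508 TPM, and ranked 21 among all genes, followed by Srgn with 2732 TPM, which ranked 33. Serpinb1a had a mean of 256.5 TPM and Ctsc one of 55.9 TPM. The progenitor-stage genes lay far below, at 8.46 TPM for Prtn3, 4.98 for Prss57, 3.04 for Ms4a3, 0.757 for Mpo, 0.245 for Ctsg and 0.148 for Elane. The ranges over libraries of Lyz2 and Srgn overlapped, and Lyz2 exceeded Srgn in 5 of 6 libraries, the exception being Ly6C-low replicate 3. Srgn, Serpinb1a, Ctsc and Prtn3 followed each other without overlap. The ranges of Prtn3 and Prss57 overlapped, as did those of Prss57 and Ms4a3, although the order held within each of the 6 libraries. Mpo lay below Ms4a3 without overlap, and the ranges of Mpo and Ctsg overlapped, as did those of Ctsg and Elane. The 10 genes together made up between 0.544% and 0.739% of each library's TPM.

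**Figure D1:**
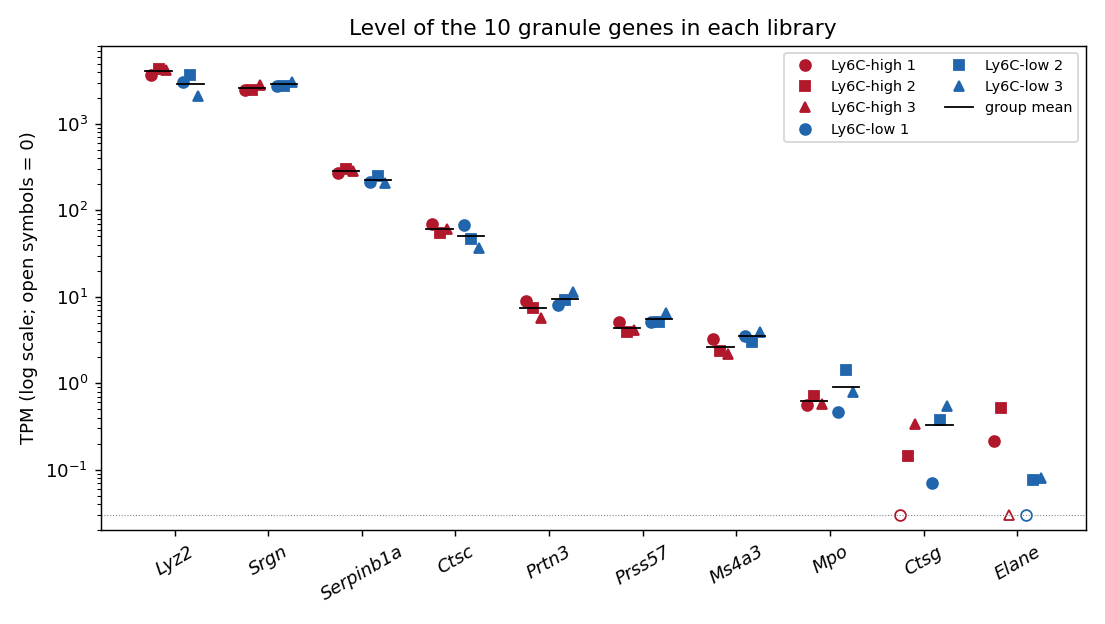
Level of each gene in TPM on a log axis, by library (red, Ly6C-high; blue, Ly6C-low; symbol shape, replicate; black lines, group means where no library is at 0; open symbols on the dotted line, listed at 0). Lyz2 and Srgn lie at 2092 TPM or more and all 6 progenitor-stage genes at 11.3 TPM or less in every library.

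Of the 8 members tested, 0 passed an adjusted p of 0.05 with edgeR's quasi-likelihood test and Benjamini-Hochberg adjustment over 11406 genes, of which 4 (0.0351%) passed. At an unadjusted p under 0.05 there were 2 members, Lyz2 and Serpinb1a, both higher in the Ly6C-high cells, where 14.3% of all genes were at that level in either direction and 6.92% in that direction. The same pair were the only members tested whose CPM did not overlap between the groups, against 21.1% of all genes in either direction and 10.3% in that direction. All 4 progenitor-stage genes tested had a log2 fold change below 0, and Lyz2, Serpinb1a and Ctsc one above 0, with Srgn at 0.00. The median over the 8 was -0.13, beside -0.0045 over all genes tested. DESeq2 called Lyz2 (adjusted p 0.0370) and Serpinb1a (adjusted p 0.0147), where it called 1.86% of the genes for which it gave an adjusted p, and limma with voom called 0 members and 0.0263% of all genes.

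Lyz2, which encodes lysozyme M, an enzyme that cuts the bacterial cell wall, measured 3981, 4565 and 4346 CPM in Ly6C-high replicates 1, 2 and 3. It measured 3048, 3595 and 2009 CPM in Ly6C-low replicates 1, 2 and 3. Every Ly6C-high library lay above every Ly6C-low library, and Ly6C-low replicate 3 was the lowest. The log2 fold change came to 0.58 (SE 0.19), a 1.49-fold difference with a 95% interval from 1.11 to 1.99, and the adjusted p with edgeR was 0.243. Leaving out Ly6C-low replicate 3 gave a log2 fold change of 0.37 (edgeR adjusted p 0.131). Monocytes also transcribe Lyz2, and the part of the monocyte genes given above in this difference was not tested.

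Lyz1, the neighbouring paralog, shares 422 words of 31 bases with Lyz2, 32.8% of those in Lyz2, so reads could be divided between the pair. It received 80.3 estimated counts over the Ly6C-high and 44.2 over the Ly6C-low libraries, against 37886 or more for Lyz2 in each library, so the total for Lyz2 hardly depends on that division. The log2 fold change of Lyz1 was 0.86 (SE 0.36, adjusted p 0.320 with edgeR).

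Serpinb1a measured 423, 448 and 414 CPM in Ly6C-high replicates 1, 2 and 3. It measured 317, 356 and 281 CPM in Ly6C-low replicates 1, 2 and 3. The groups did not overlap, and the spread within each was small, with an SD of 17.5 CPM in Ly6C-high libraries and 37.2 CPM in the Ly6C-low libraries (n = 3 each). The log2 fold change came to 0.43 (SE 0.10), or 1.35-fold with a 95% interval from 1.15 to 1.58, and the edgeR adjusted p was 0.189. Its paralogs Serpinb1b and Serpinb1c received 0 and 3 counts over all libraries, and each shares at most 136 words of 31 bases with it. Over the 6 libraries Serpinb1a followed Lyz2, with a Pearson r of 0.952 on log2 CPM, given as a description over 6 libraries that share their depth and scaling.

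Ctsc, whose product cathepsin C removes the blocking dipeptide from the granule proteases, measured 137, 99.8 and 110 CPM in the Ly6C-high libraries. In the Ly6C-low libraries it measured 120, 86.2 and 61.9 CPM. The groups overlapped, with Ly6C-low replicate 1 above Ly6C-high replicates 2 and 3. The log2 fold change of 0.37 (SE 0.25) did not pass (edgeR adjusted p 0.562). Leaving out Ly6C-low replicate 3 gave 0.17, and leaving out replicate 1 of that group gave 0.64.

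Srgn, which encodes the serglycin core on which granule proteins are packed, measured 1639, 1428 and 1636 CPM in the Ly6C-high libraries. It measured 1490, 1547 and 1660 CPM in the Ly6C-low libraries. The groups overlapped throughout, and the log2 fold change came to 0.00 (SE 0.10), with a 95% interval from -0.23 to 0.23. On the TPM scale the means were 2598 ± 213 in the Ly6C-high and 2866 ± 183 in Ly6C-low libraries (SD over 3 libraries each). The counts of Srgn were divided mainly between protein-coding transcripts of 938 and 694 bases. The longer took 85.7% of them in Ly6C-high replicate 1 and elsewhere between 54.7% and 66.4%. As 96.2% of the 31-base words of the shorter also occur in the longer, the division between them is uncertain. The total of counts for the gene does not depend on that division. The TPM of the gene does, as TPM is corrected for transcript length: Ly6C-high replicates 1 and 2 had 30986 and 26778 counts but 2463 and 2487 TPM.

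**Figure D2:**
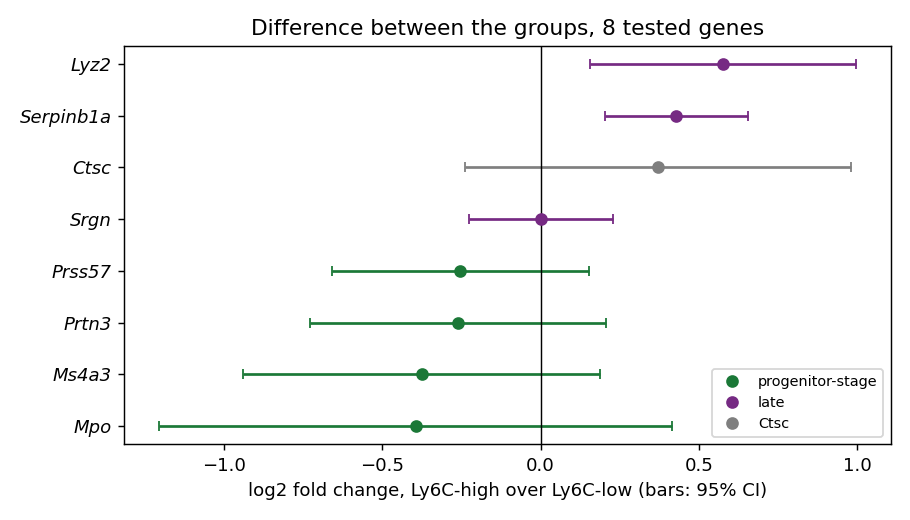
Log2 fold change, Ly6C-high over Ly6C-low, of the 8 genes tested with edgeR (points; bars, 95% confidence intervals from 3 libraries in each group; green, progenitor-stage; purple, late; grey, Ctsc). The intervals of Lyz2 (0.15 to 1.00) and Serpinb1a (0.20 to 0.66) lie above 0, and those of the other 6 genes include 0.

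The progenitor-stage transcripts were detected at low levels, in both groups. Together they measured 18.1, 15.0 and 13.0 TPM in Ly6C-high replicates 1, 2 and 3. In Ly6C-low replicates 1, 2 and 3 they measured 17.2, 19.2 and 23.2 TPM. The groups overlapped through Ly6C-high replicate 1, and Ly6C-low replicate 3 was the highest.

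Prtn3, which encodes proteinase 3, received 97, 74 and 64 counts in the Ly6C-high and 87, 91 and 104 counts in the Ly6C-low libraries. As CPM these were 5.13, 3.95 and 3.13 against 4.34, 4.77 and 5.52. The groups overlapped, with Ly6C-high replicate 1 among the Ly6C-low libraries. For Prtn3 the log2 fold change came to -0.26 (SE 0.21, 95% interval -0.73 to 0.21, edgeR adjusted p 0.614).

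Most of the Prtn3 counts were not assigned to its full coding transcript. A transcript of 786 bases annotated as a retained intron took 84.1% of the counts, and the coding transcript of 1025 bases took 11.6%. Of the 786 bases, 730 lie in exons of the coding transcript and 56 in its second intron, and 92.6% of its 31-base words also occur in the coding transcript. The coding transcript of Prtn3 measured 0.908, 0.385 and 0.484 TPM in the Ly6C-high and 0.936, 0.660 and 0.816 TPM in the Ly6C-low libraries, so the level of 8.46 TPM for the gene is that of all its annotated transcripts. The exons of Prtn3 also share 159 of 1732 bases with exons of Plppr3 on the opposite strand, 0 of them in the retained-intron transcript.

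**Figure D3:**
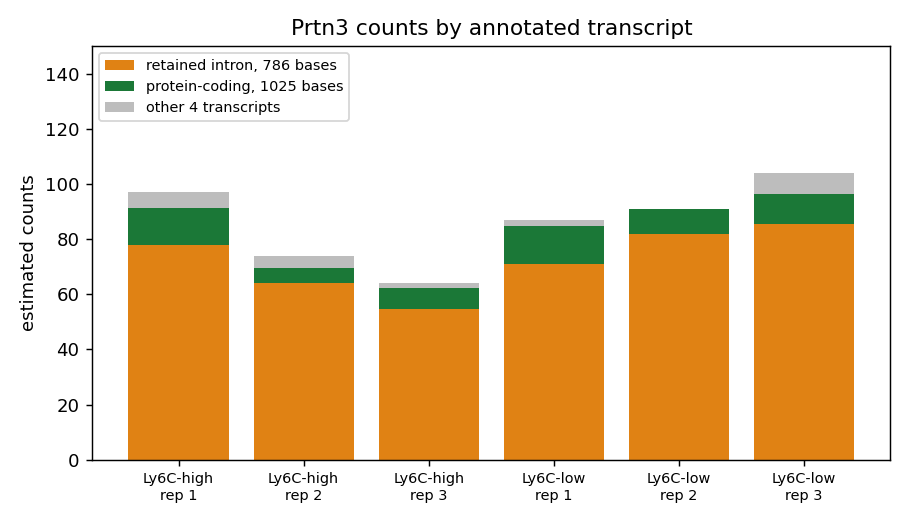
Estimated counts of Prtn3 in each library, stacked by annotated transcript (orange, retained-intron transcript of 786 bases; green, protein-coding transcript of 1025 bases; grey, the other 4 transcripts). The retained-intron transcript holds between 54.6 and 85.4 counts and the coding transcript between 5.5 and 13.7 in each library.

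Prss57, which encodes the elastase-related protease NSP4, received 192, 164 and 127 counts in the Ly6C-high libraries. In the Ly6C-low libraries it received 181, 182 and 215 counts. As CPM the groups overlapped (10.2, 8.75 and 6.22 against 9.03, 9.48 and 11.4), with a log2 fold change of -0.25, a standard error of 0.19 and an edgeR adjusted p of 0.567. On the TPM scale they did not overlap: all 3 Ly6C-high libraries, at 5.05, 3.92 and 4.15 TPM, lay below all 3 Ly6C-low libraries, at 5.08, 5.12 and 6.56 TPM, by a margin between the nearest libraries far smaller than the spread within either group.

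Part of Prss57 overlaps another gene. It lies opposite Fstl3, which encodes a follistatin-like protein, and 1157 of its 2843 exon bases are also exon bases of Fstl3 on the other strand. The 2 Prss57 transcripts that cover this stretch took 95.5% of its counts, and the other transcripts took 47.7 counts over all 6 libraries. Fstl3 itself received 975.2 counts over the 6 libraries, beside 1059.8 for Prss57, nearly all on a transcript of 1549 bases. In the transcript with 75.8% of the counts, 1536 of 2693 bases do not lie opposite Fstl3 exons, and 42.3% of its 31-base words occur in Fstl3 read in reverse (40.0% for the other of the 2). Whether reads were assigned by strand is not given in the sources used here. If they were not, reads within the shared stretch cannot be told apart, while reads over the rest of Prss57 can. The tables give counts per transcript, so how many reads fell in the shared stretch is unknown.

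Ms4a3, a membrane protein gene used as a marker of granulocyte and monocyte progenitors and also transcribed in basophils, received 46, 32 and 32 counts in the Ly6C-high and 51, 41 and 51 in the Ly6C-low libraries. Its level was 2.43, 1.71 and 1.57 CPM against 2.55, 2.15 and 2.71 CPM. Ly6C-high replicate 1 lay among the Ly6C-low libraries, and the other Ly6C-high libraries below them. For Ms4a3 the log2 fold change came to -0.38 (SE 0.26, edgeR adjusted p 0.544). The basophil and mast cell genes given above also had lower sums in Ly6C-high libraries, and their part in the value of Ms4a3 was not tested.

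Mpo received 22.9, 28.8 and 18.4 counts in the Ly6C-high libraries, and 18.6, 43.8 and 29.0 in the Ly6C-low libraries. These correspond to 1.22, 1.55 and 0.881 CPM against 0.948, 2.31 and 1.54 CPM, and the groups overlapped. The log2 fold change of -0.39 (SE 0.37) had an edgeR adjusted p of 0.663, and its 95% interval from -1.21 to 0.42 spans changes of more than 2-fold downward. Leaving out Ly6C-low replicate 2 gave -0.03, and leaving out replicate 1 of that group gave -0.67. An antisense gene shares 512 of the 3424 exon bases of Mpo.

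Elane and Ctsg, the genes of neutrophil elastase and cathepsin G, were at the limit of detection. Elane received 3, 7 and 0 counts in the Ly6C-high and 0, 1 and 1 in the Ly6C-low libraries. A count of 0 allows up to 3 counts, or 0.143 per 1e6 counts of the library in Ly6C-high replicate 3 and 0.150 for Ly6C-low replicate 1. The summed counts of 10 against 2 gave a depth-corrected ratio of 4.65 with an exact 95% interval from 0.990 to 43.6, which covers counting error only and not the spread between libraries. Ctsg received 0, 2 and 5 counts in the Ly6C-high and 1, 5 and 7 in the Ly6C-low libraries. Its sums of 7 and 13 gave a ratio of 0.500 (0.169 to 1.35), so a difference was not detectable at this depth for Ctsg. Their transcripts share 0 words of 31 bases with each other, and Elane shares 0 with Prtn3 and Prss57.

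The progenitor-stage and the late genes were then set against each other within each library. The mean log2 CPM of the 6 progenitor-stage genes minus that of Lyz2, Srgn and Serpinb1a was -10.07, -9.91 and -10.44 in the Ly6C-high libraries. It was -10.00, -9.65 and -9.19 in the Ly6C-low libraries. The groups overlapped through Ly6C-high replicate 2 and Ly6C-low replicate 1, and the group means of -10.14 and -9.61 differed by -0.53. The pooled SD of single libraries within groups was 0.35, which describes their spread and is not a test of the difference. The difference takes in the higher Lyz2 and Serpinb1a of the Ly6C-high libraries as well as the progenitor-stage genes. Among the latter, Elane and Ctsg, at 7 counts or fewer in each library, weigh as much as the others. No p is given, since the genes were chosen with earlier results of these data known. Leaving out Ly6C-low replicate 3 gave a difference of -0.31.

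Lyz2 exceeded the summed progenitor-stage genes by 206, 291 and 322 times in TPM in the Ly6C-high libraries. The ratio was 176, 190 and 90.1 in the Ly6C-low libraries, all below the Ly6C-high libraries. Serpinb1a TPM exceeded the summed TPM of the 4 proteases Elane, Prtn3, Ctsg and Prss57 by 19.1, 25.1 and 28.2 times in the Ly6C-high and by 16.31, 17.01 and 11.34 times in the Ly6C-low libraries. Both ratios were thus larger in every Ly6C-high library, with the retained-intron counts of Prtn3 and the overlap of Prss57 included in the sums. Lyz2 and Serpinb1a are the 2 members whose CPM did not overlap between the groups, so the ratios take in that difference and are not separate results. No such ratio was formed for Srgn, the other late gene, whose groups overlapped.

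**Figure D4:**
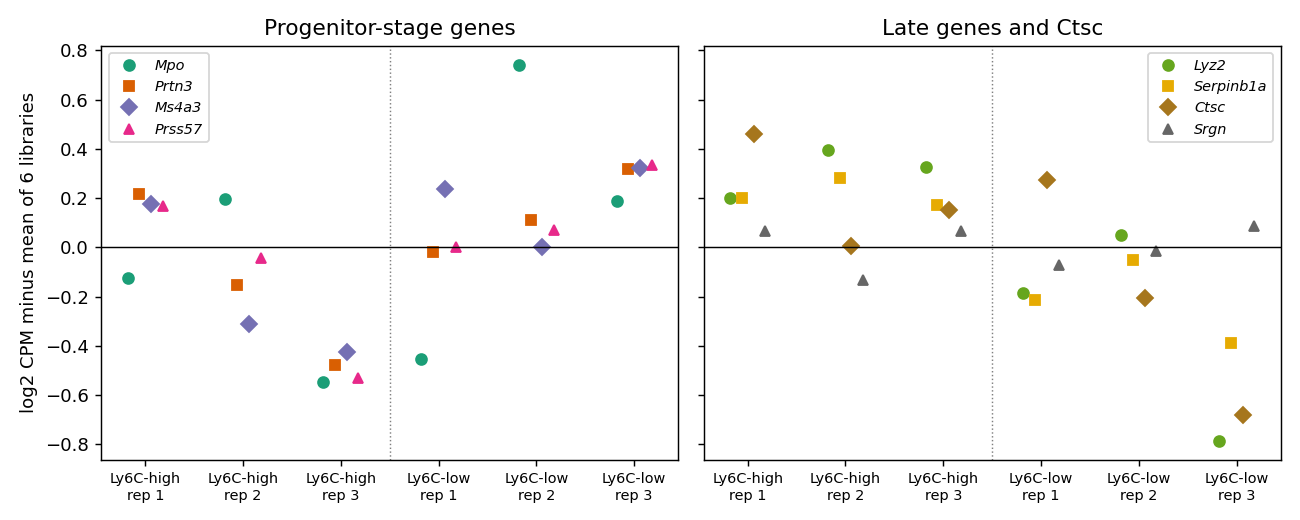
Log2 CPM of each tested gene minus its mean over the 6 libraries, by library (left, progenitor-stage genes; right, late genes and Ctsc; the dotted line separates the groups). Prtn3, Prss57 and Ms4a3 lie lowest in Ly6C-high replicate 3 and highest in Ly6C-low replicate 3, where Lyz2, Serpinb1a and Ctsc lie lowest.

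Among the progenitor-stage genes, Prtn3, Prss57 and Ms4a3 varied together between libraries, and Mpo less so. Pearson r of log2 CPM over the 6 libraries was 0.977 for Prtn3 with Prss57, 0.881 for Prtn3 with Ms4a3 and 0.843 for Ms4a3 with Prss57, against 0.518 for Mpo with Prtn3 and 0.145 for Mpo with Ms4a3. Each of the 3 was negatively related to Lyz2, with r between -0.782 and -0.650. These are descriptions over 6 libraries of 2 groups that share depth and scaling. In log2 units, Ly6C-high replicate 3 lay between 0.43 and 0.53 below the mean of the 6 libraries for these 3 genes and Ly6C-low replicate 3 between 0.32 and 0.33 above it, so for each of the 3 the range within the Ly6C-high libraries exceeded the difference between the groups.

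Of 6952 other genes with a mean of at least 5 CPM, those most like Lyz2 over the 6 libraries were Antxr2, an anthrax toxin receptor gene (Pearson r 0.998), Vcl, which encodes the adhesion protein vinculin (0.995), and Wdfy2 (0.994). Their log2 fold changes were 0.22, 0.44 and 0.25. The genes most like the summed progenitor-stage members were Dus1l, which encodes a dihydrouridine synthase (0.986), the phosphatase gene Ptp4a2 (0.983) and Zxdb (0.982), with log2 fold changes of -0.31, -0.09 and -0.11. None of the 6 passed the edgeR test, with adjusted p between 0.239 and 0.738. These r are the highest of 6952 values, each over 6 libraries, so they are high by selection and do not show shared regulation. Antxr2, Vcl and Wdfy2 were, like Lyz2, lowest in Ly6C-low replicate 3.

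Other proteins of azurophil granules and lysosomes included abundant transcripts. Of 17 genes 16 were tested, 0 passed the adjusted threshold, and 0 were higher and 2 lower at an unadjusted p under 0.05 (background 6.92% and 7.34%), with a median log2 fold change of -0.07. The most abundant were Ctsd, the gene of cathepsin D, at 1320 ± 71.1 TPM in the Ly6C-high and 1290 ± 270 TPM in Ly6C-low libraries (SD over 3 libraries each), Ctsb at 353 ± 31.2 against 394 ± 88.3 TPM, and Man2b1, a lysosomal mannosidase gene, at 229 ± 8.15 against 264 ± 11.9 TPM. Those with the smallest p were Gaa, which encodes acid alpha-glucosidase, at a log2 fold change of -0.56 (SE 0.14), and Ctsa, which encodes cathepsin A, at -0.32 (SE 0.10). They were the only 2 of the 16 whose CPM did not overlap between the groups, against 21.1% of all genes. Their edgeR adjusted p were 0.192 and 0.220.

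Among inhibitors of serine proteases or of cysteine cathepsins, of 15 genes 6 were tested, with a median log2 fold change of -0.01. Of these, 0 were past the adjusted threshold and 0 at an edgeR unadjusted p under 0.05 (background 14.3%). Slpi, which encodes a secreted inhibitor of elastase and cathepsin G, was the most abundant at 882.5 ± 27.2 TPM in the Ly6C-high and 915 ± 52.5 TPM in Ly6C-low libraries (SD over 3 libraries each). Cst3, which encodes cystatin C, measured 357 ± 8.30 against 411 ± 9.97 TPM, and Cstb 112 ± 2.43 against 125 ± 3.35 TPM, with log2 fold changes of -0.12 and -0.07. The smallest p was that of Serpinb6a, at -0.18 (SE 0.12). Serpina1a, Serpina1b and Serpina3n, family members made mainly in liver, were listed at 0 in all 6 libraries.

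Other serine proteases, most of them of other blood cells, had low levels. Of 11 genes 5 were at 0 in all libraries, among them Cfd, the gene next to Elane. Of the 11, 4 were tested, with 0 past the adjusted threshold. At an edgeR unadjusted p under 0.05, 0 were higher and 2 lower (background 6.92% and 7.34%). The 2 were the basophil proteases Mcpt8, at 1.14 ± 0.227 TPM in the Ly6C-high and 8.62 ± 5.89 TPM in Ly6C-low libraries (SD over 3 libraries each), and Prss34, at 0.794 ± 0.343 against 2.60 ± 1.25 TPM. Their log2 fold changes were -2.82 and -1.60, with edgeR adjusted p of 0.172 and 0.192. Of the 4 tested, 3 did not overlap in CPM between the groups, Mcpt8 and Prss34 among them, against 21.1% of all genes. Gzma, the granzyme A gene, had a log2 fold change of 0.87 (SE 0.48), and its groups overlapped.

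Other genes of the promyelocyte and early progenitor stage included transcription factors and receptors. Of 11 genes 9 were tested, with 0 past the adjusted threshold and a median log2 fold change of 0.07. At an edgeR unadjusted p under 0.05, 3 were higher and 0 lower (background 6.92% and 7.34%). The 3 were Cebpa, a transcription factor gene of granulocyte commitment, at 5.03 ± 0.444 TPM in the Ly6C-high and 3.55 ± 1.11 TPM in Ly6C-low libraries (SD over 3 libraries each), Myb, at 1.64 ± 0.288 against 1.16 ± 0.274 TPM, and Cebpe, a factor of the later myelocyte stage, at 29.1 ± 4.11 against 25.0 ± 4.18 TPM. Their log2 fold changes were 0.60, 0.54 and 0.31, with edgeR adjusted p of 0.283, 0.321 and 0.343. Calr, the chaperone calreticulin, had a log2 fold change of -0.10, and Kit, a receptor gene also of mast cells, one of -0.67 (SE 0.35). Fcnb, the ficolin gene of early neutrophils, had one of 0.06.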

How the data were processed

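RNA of 6 sorted blood neutrophil samples was sequenced after a Kapa mRNA library preparation, per the labels' protocols. The authors ran kallisto, with GRCm39 as the genome build, per the submitters' processing notes; no source used here gives its version, index or strand setting. Each deposited table gave, per transcript, estimated counts, TPM and transcript length, per the file headers. Of 117486 transcripts 99.04% were assigned to genes by identifier with GENCODE M21, on build GRCm38, and summed to 35853 genes. Unmatched transcripts were left out.

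After rounding, estimated counts entered edgeR 4.0.16 in R 4.3.3 (filterByExpr, TMM, robust quasi-likelihood fit, group as the only term), with Benjamini-Hochberg adjustment over 11406 genes. Groups were taken from the sample titles. In a simulation of this comparison over 11406 genes, 200 of them changed, the edgeR step called 39.1%, 66.6% and 91.3% of genes changed 1.5-, 2- and 4-fold, and 8.70% of its calls were false. Mean log2 CPM used a prior count of 2. Reads carry no molecular identifiers, so intervals on counts cover counting error only.

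The members and the related lists were chosen with earlier results of these data known. Named genes are the 10 members, the 3 most abundant and the 2 with the smallest p of each related list, paralogs, and the 3 genes most like Lyz2 or the summed progenitor-stage members. Other genes named with values (Fcnb, Cfd, Serpina1a, Serpina1b, Serpina3n, Fstl3, Ly6c2 and the marker genes) were chosen after their values were seen. Alternatives were a replicate block, DESeq2 size factors, library size alone, no filter, genes of mean count 10 or more, DESeq2 1.42.0 by its Wald test, voom in limma 3.58.1, length-scaled TPM and each library left out. Protein sequences were not used here.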

Additional observations from a re-analysis of the deposited data

How the results depend on the processing

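No member passed an adjusted p of 0.05 with edgeR with any library left out. Lyz2 and Serpinb1a kept a log2 fold change above 0, and the 4 tested progenitor-stage genes one below 0, in all alternatives. Besides DESeq2, both Lyz2 and Serpinb1a passed with edgeR without a filter on low counts (adjusted p 0.000443 and 0.0114). In that setting 439 of 20580 genes passed, with an infinite prior on the spread. Srgn, at 0.00, changed sign with library size alone (-0.11), no filter (-0.0098), voom (-0.0001) and length-scaled TPM (-0.0461), and lay between -0.0381 and 0.0627 with 1 library left out. The count of all genes past the threshold was 61 with the replicate block, 8 with library size alone (2 higher and 6 lower, with the median of all genes at -0.11), 439 with no filter, 126 with DESeq2 and 2 with length-scaled TPM, against 4, and between 2 and 22 with 1 library left out. It was 22 without Ly6C-low replicate 3, and 2 when replicate 2 of either group or replicate 3 of the Ly6C-high group was left out. With 1 library left out, log2 fold changes ran from -0.46 to -0.10 for Prtn3, -0.42 to -0.08 for Prss57 and -0.59 to -0.25 for Ms4a3. Deviations from the group mean correlated between same-numbered libraries at r of 0.237, -0.037 and 0.239. Between differently numbered libraries of the 2 groups r lay from -0.312 to 0.11. These values do not settle whether the numbers pair the samples. The labels do not say that they do, so the block was kept as an alternative. With the block the members' edgeR adjusted p included 0.0568 for Serpinb1a, 0.0912 for Lyz2 and 0.132 for Ctsc. These 3 members had an unadjusted p under 0.05, as did 2056 of all 11406 genes with the block. Ctsc also did with DESeq2 (0.0492, adjusted p 0.301), where 1402 of 11406 genes did. It did so too with edgeR when Ly6C-low replicate 1 was left out (0.00432, adjusted p 0.210), where 1654 of 11768 genes did. Where a count changed, the cause was not tested. Depth limits Elane, Ctsg and Mpo.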
